A study of Mus musculus with 34 samples.

Results

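The genes that copy DNA and carry a cell from G1 into S phase were examined in the limb buds of mouse embryos without *Hnrnpk* in the limb mesenchyme. The list held 44 genes named for their function: the MCM2-7 helicase, origin licensing and helicase activation, the replicative polymerases, the sliding clamp and its loader, replication protein A, nucleotide supply, the joining of Okazaki fragments, the E cyclins and maintenance DNA methylation. All 44 were found, each once, among the 22040 genes of the RNA-seq table. RNA had been sequenced from E11.5 limb bud cells of 3 WT embryo samples (*Hnrnpk* WT) and 3 CKO samples (*Prrx1-Cre;Hnrnpk* fl/fl). In CKO, Cre is driven by *Prrx1*, in limb bud mesenchyme and the calvarium, and removes the *Hnrnpk* exons between a pair of loxP sites, while ectoderm, blood and vessel cells of the bud keep the gene. The sources used here do not say which alleles and Cre the WT embryos carried beyond *Hnrnpk* WT, or how many embryos went into a sample. The question was whether this gene module, as a whole and complex by complex, differed between CKO and WT at a stage when the bud is growing fast.

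Before S phase, the origin recognition complex, Cdc6 and Cdt1 load the ring of 6 MCM proteins onto DNA, and Cdc45 and the GINS proteins then turn each ring into a moving helicase. Polymerase alpha-primase lays the primers, polymerases delta and epsilon extend them with Pcna as their sliding clamp, and Fen1 and Lig1 join the pieces of the lagging strand. In mammals many of these genes are transcribed in late G1 under E2F factors, which the retinoblastoma proteins hold back, and p21 (*Cdkn1a*) acts upstream by inhibiting cyclin-dependent kinases. Dividing progenitors of the early limb mesenchyme express them at high levels.

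Levels are given in FPKM as deposited, in which the fragments of a gene are divided by the length of its exons and a scaled library size. The recovered reads were 0.947 (CKO replicate 1) to 1.11 (CKO replicate 2) times that size. A log2 fold change is the CKO mean minus the WT mean of log2(FPKM + 0.1), fitted by limma over the 12305 genes with a mean of at least 0.5 FPKM, and *p* values were adjusted over all of these genes by the Benjamini-Hochberg method. All 44 replication genes passed this minimum. Behind their values stood between 389 and 12477 reads per library, as far as reads could be recovered from the FPKM (41 of the 44 genes). The samples are called biological replicates, but the sources used here do not say whether each came from a separate litter, so the *p* values measure the spread between these samples.

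The targeted gene *Hnrnpk* had an FPKM of 193, 195 and 185 in WT and 127, 142 and 135 in CKO. The groups did not overlap, and the CKO mean was 0.706 times the WT mean (log2 fold change -0.50, SE 0.13, adjusted *p* = 0.334, or 0.0575 when replicate number was a block). The gene value also counts exons outside the deleted ones. In bulk samples, fewer cells of a type and less RNA per cell cannot be told apart. The 7 limb mesenchyme markers were detected in every library, with a summed FPKM of 311 to 329 in WT and 268 to 298 in CKO. None of the 7 passed the adjusted threshold, and with the replicate block *Tbx5* did (log2 fold change -0.93, adjusted *p* = 0.358 without and 0.00734 with the block). Libraries differed more in blood than in any other marker list: the 10 erythroid markers summed to 35850 to 62089 in WT and 29298 to 138770 in CKO, lowest in CKO replicate 1 and highest in CKO replicate 2. The first principal component of all genes (52.6% of the variance) separated WT and CKO replicate 1 from the other 4 libraries, and the next (26.0%) separated the genotypes. The check given in the processing notes pairs the libraries numbered 1, but it does not tell the other numbers apart. The pairing of those other numbers rests on the labels alone. With this limit, values from the fit with the number as a block are given where they change a count.

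In WT limb buds every replication gene was well expressed. *Pcna*, the sliding clamp, had the highest mean level, 172 ± 17.9 FPKM (SD, n = 3), and *Rrm2*, the cell cycle regulated subunit of ribonucleotide reductase, came next at 116 ± 11.96. Neither overlapped with its neighbours in this order. A group of 6 genes followed, *Mcm7*, *Uhrf1*, *Mcm5*, *Mcm4*, *Mcm6* and *Mcm3*, with means from 98.7 down to 73.9 FPKM, in which each gene overlapped with the next over its 3 libraries. At the lower end stood *Prim2*, the large primase subunit, at 8.28 ± 0.486 and *Pole2*, the accessory subunit of polymerase epsilon, at 7.90 ± 0.437 FPKM, which overlapped with each other.

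A sequence feature that does not come from these libraries was more frequent in promoters of the module than in those of all genes. RefSeq promoter sequences, 250 bases before to 50 after the gene start on GRCm38.p6, were at hand for 36 of the 44 genes. An E2F-type word of 8 letters (TTTGGCGC, TTTCCCGC, TTTCGCGC or TTTGCCGC, on either strand) was present in 15 of the 36 (41.7%), against 538 of 16403 promoters of all genes in the table (3.3%). In the wider list of other replication genes described below, the word was in 15 of the 40 promoters at hand (37.5%), so it is not particular to the module. It was found in 4 of 5 MCM promoters and 3 of 5 of the loading factors, and in none of the 4 genes of nucleotide supply. A CCAAT word, on either strand, was in 66.7% of the 36 and in 42.1% of all promoters. To let the words of the helicase ring and its loaders be compared, those lying wholly before the start are shown with the matched letters in capitals, 30 bases each on the strand of the gene, while the matches of *Mcm3* and *Cdt1* do not lie there and are not shown.
Mcm5, chr8:75109347-75109376: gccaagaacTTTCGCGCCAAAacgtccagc
Mcm6, chr1:128359795-128359824: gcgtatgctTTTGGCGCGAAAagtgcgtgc
Mcm6, chr1:128359734-128359763: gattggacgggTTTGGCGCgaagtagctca
Mcm7, chr5:138172030-138172059: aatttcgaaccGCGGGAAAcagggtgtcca
Orc1, chr4:108579416-108579445: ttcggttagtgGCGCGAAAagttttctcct
Cdc6, chr11:98908002-98908031: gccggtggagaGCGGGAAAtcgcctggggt

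*Mcm5* and *Mcm6* are read on the plus and the minus strand. In each, a pair of overlapping words made up a run of 12 bases, and the run of *Mcm6* was the reverse complement of that of *Mcm5*. They began 153 bases before the start of *Mcm5* and 110 before that of *Mcm6*, and *Mcm6* held another word 47 bases before its start. By the GENCODE positions, the windows of *Mcm5* and *Mcm6* lie outside and before the gene, that of *Orc1* spans the annotated start, and those of *Mcm7* and *Cdc6* lie inside the annotated gene. A word is a match of letters and does not show that a factor was bound.

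None of the 44 genes passed an adjusted *p* value of 0.05 in the comparison of CKO with WT by limma, and none had an unadjusted *p* value under 0.05, the lowest being 0.0540 for *Mcm4*. Over all genes tested, 0.065% passed the adjusted threshold and 8.31% the unadjusted one in either direction. Of all genes, 0.666% combined an unadjusted *p* value under 0.05 with a change of more than 2 times in either direction, and no replication gene did. The estimates nevertheless leaned to one side. A log2 fold change above 0 was found for 36 of the 44 genes (81.8%), against 50.9% of all genes tested, and the median was 0.14, against 0.0048 over all genes. The range ran from -0.13 for *Pold2* to 0.35 for *Mcm10*. Leaving out CKO replicate 2 lowered the number above 0 to 27 and the median to 0.10, and leaving out CKO replicate 1 gave 38 genes and a median of 0.21.

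**Figure D1:**
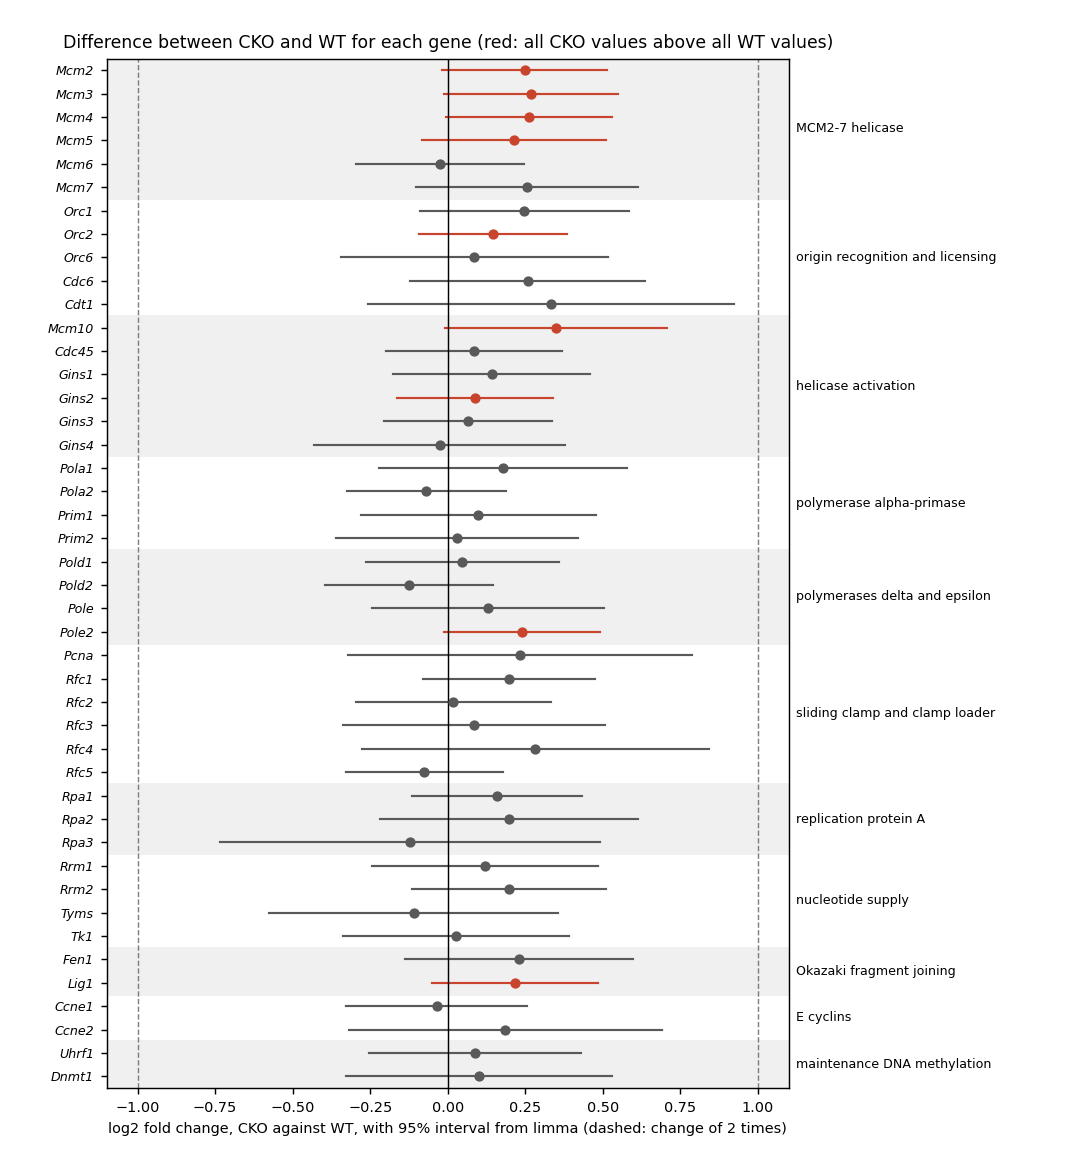
Log2 fold change of CKO against WT for each of the 44 genes (horizontal axis), with the 95% interval from limma as a bar, grouped by role. Red marks the 9 genes whose 3 CKO values all lay above the 3 WT values; all 44 intervals cross 0, and the points lie between -0.13 and 0.35.

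How large a change these libraries could have missed is given by the intervals of the difference. All 44 intervals at 95% confidence included 0. Of these, 43 lay wholly above a fall of 1.5 times. On the other side, all 44 lay below a rise of 2 times and 34 below a rise of 1.5 times. The interval that reached lowest was that of *Rpa3* (0.601-fold), and the one that reached highest was that of *Cdt1* (1.90-fold).

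In 9 of the 44 genes (20.5%) the CKO values lay above the WT values without overlap, against 5.63% of all genes tested, and in none did they lie below, against 8.86%. With 3 libraries per group, the exact two-sided permutation test of a single gene cannot give a *p* value under 0.1, and these 9 genes had that value. They were *Mcm2*, *Mcm3*, *Mcm4*, *Mcm5*, *Orc2*, *Mcm10*, *Gins2*, *Pole2* and *Lig1*, so 4 of them belong to the helicase ring.

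The MCM2-7 helicase unwinds the double strand at each fork, and its 6 subunits are loaded together. *Mcm2* (ENSMUSG00000002870, GRCm38 chromosome 6 from 88883474 to 88898780, minus strand) had an FPKM of 47.5, 43.2 and 40.9 in WT and 50.5, 53.6 and 52.0 in CKO. Every CKO library was above every WT library, and the log2 fold change was 0.25 (SE 0.11, adjusted *p* = 0.629). *Mcm3* (chromosome 1 from 20802968 to 20820312, minus strand) had 77.7, 75.1 and 69.0 in WT and 83.0, 93.3 and 91.0 in CKO, and *Mcm4* (chromosome 16 from 15623897 to 15637400, minus strand) had 81.8, 73.9 and 73.6 in WT and 91.2, 91.3 and 92.2 in CKO. Both showed the same separation, with log2 fold changes of 0.27 (SE 0.12, adjusted *p* = 0.615) and 0.26 (SE 0.12, adjusted *p* = 0.607). The narrowest spread of the ring was that of *Mcm4* in CKO (SD 0.548).

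*Mcm5* (chromosome 8 from 75109569 to 75128439, plus strand) had an FPKM of 90.3, 86.6 and 75.8 in WT and 92.0, 102 and 98.6 in CKO, where CKO replicate 1 stood only just above WT replicate 1, and its log2 fold change was 0.21 (SE 0.13, adjusted *p* = 0.723). *Mcm7*, the most abundant subunit (chromosome 5 from 138164583 to 138172422, minus strand), had 106, 102 and 87.8 in WT and 102, 135 and 118 in CKO. Here CKO replicate 1 fell among the WT values, so the groups overlapped despite a log2 fold change of 0.25 (SE 0.15, adjusted *p* = 0.723). The *Mcm7* exons share 172 bases with genes on the same strand, *Mir25* and *Mir93* among them, and 385 with genes on the opposite strand.

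*Mcm6* (chromosome 1 from 128331590 to 128359664, minus strand) was the subunit with a log2 fold change under 0, and it is described here because its values were seen to differ from the rest of the ring. Its FPKM was 75.5, 76.0 and 74.9 in WT and 68.7, 74.9 and 79.4 in CKO, the groups overlapped, and the log2 fold change was -0.025 (SE 0.12, adjusted *p* = 0.972). Relative to the mean of the other 5 subunits on the log2 scale, *Mcm6* stood at -0.047, 0.053 and 0.15 in WT and at -0.24, -0.28 and -0.14 in CKO. The ratio was lower in each CKO library than in each WT library, a difference of -0.27 in the means. The exact two-sided permutation test on this ratio gave *p* = 0.1, the smallest value possible with 3 libraries per group. Since the gene was picked for this pattern, that value is not support for it. A scaling factor common to all genes of a library cancels in this ratio. Summed over the 6 subunits, the FPKM was 479, 457 and 422 in WT and 487, 549.8 and 531 in CKO, and the median log2 fold change of the ring was 0.25.

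The 5 loading factors had the same median log2 fold change to 2 digits (0.25), and all 5 lay above 0. *Orc2*, a subunit of the origin recognition complex (chromosome 1 from 58462771 to 58505109, minus strand), had an FPKM of 24.5, 23.1 and 23.5 in WT and 25.5, 26.4 and 27.0 in CKO, narrow in both groups and without overlap, for a log2 fold change of 0.15 (SE 0.10, adjusted *p* = 0.777). The *Orc2* exons share 1150 bases with *Nif3l1* on the opposite strand. *Orc6*, the most abundant of this group (chromosome 8 from 85299632 to 85308278, plus strand), had 26.4, 32.2 and 33.1 in WT and 24.9, 38.5 and 35.1 in CKO, with the CKO libraries on both sides of the WT values.

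*Cdt1*, which brings the MCM ring to origins and is destroyed in S phase (chromosome 8 from 122568015 to 122573554, plus strand), had 27.6, 17.4 and 17.1 in WT and 34.6, 19.9 and 23.9 in CKO. Both libraries numbered 1 were the highest of their group, and CKO lay above WT within each number by 0.32, 0.20 and 0.49 on the log2 scale. The fit with the replicate number as a block gave *Cdt1* the lowest *p* value of the module (unadjusted *p* = 0.00783, adjusted *p* = 0.115), against 0.227 unadjusted without it. *Cdc6* and *Orc1*, which work beside Cdt1 at the origin, had log2 fold changes of 0.26 (SE 0.16, adjusted *p* = 0.739) and 0.25 (SE 0.15, adjusted *p* = 0.721), and in both the groups overlapped through WT replicate 1.

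*Mcm5* and *Mcm6*, which share the 12-base run shown above in opposite orientation, had log2 fold changes of 0.21 and -0.025. Over the module, the median log2 fold change was 0.21 for the 15 genes with an E2F-type word and 0.12 for the 21 without one, and this difference was not tested.

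Among the 6 genes of helicase activation the median was 0.086, with 5 above 0. *Mcm10*, which joins the activated helicase to the polymerases (chromosome 2 from 4989714 to 5012791, minus strand), had the highest log2 fold change of the module, 0.35 (SE 0.15, adjusted *p* = 0.607). Its FPKM was 15.6, 11.4 and 10.96 in WT and 15.6, 16.6 and 15.7 in CKO. WT replicate 1 and CKO replicate 1 were equal to the digits shown, so the separation of the groups rested on the digits beyond, while WT replicates 2 and 3 stood well below. *Gins2*, a subunit of the GINS complex (chromosome 8 from 120578633 to 120589304, minus strand), had 17.8, 17.9 and 15.7 in WT and 18.2, 18.2 and 18.2 in CKO, without overlap but with a log2 fold change of only 0.087 (SE 0.11, adjusted *p* = 0.881), and 2758 of its exon bases are shared with *Gse1* on the opposite strand. *Gins4*, the most abundant gene of this role, had 35.5, 43.3 and 35.4 in WT and 29.9, 45.2 and 38.1 in CKO. There the CKO libraries held both the highest and the lowest value.

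**Figure D2:**
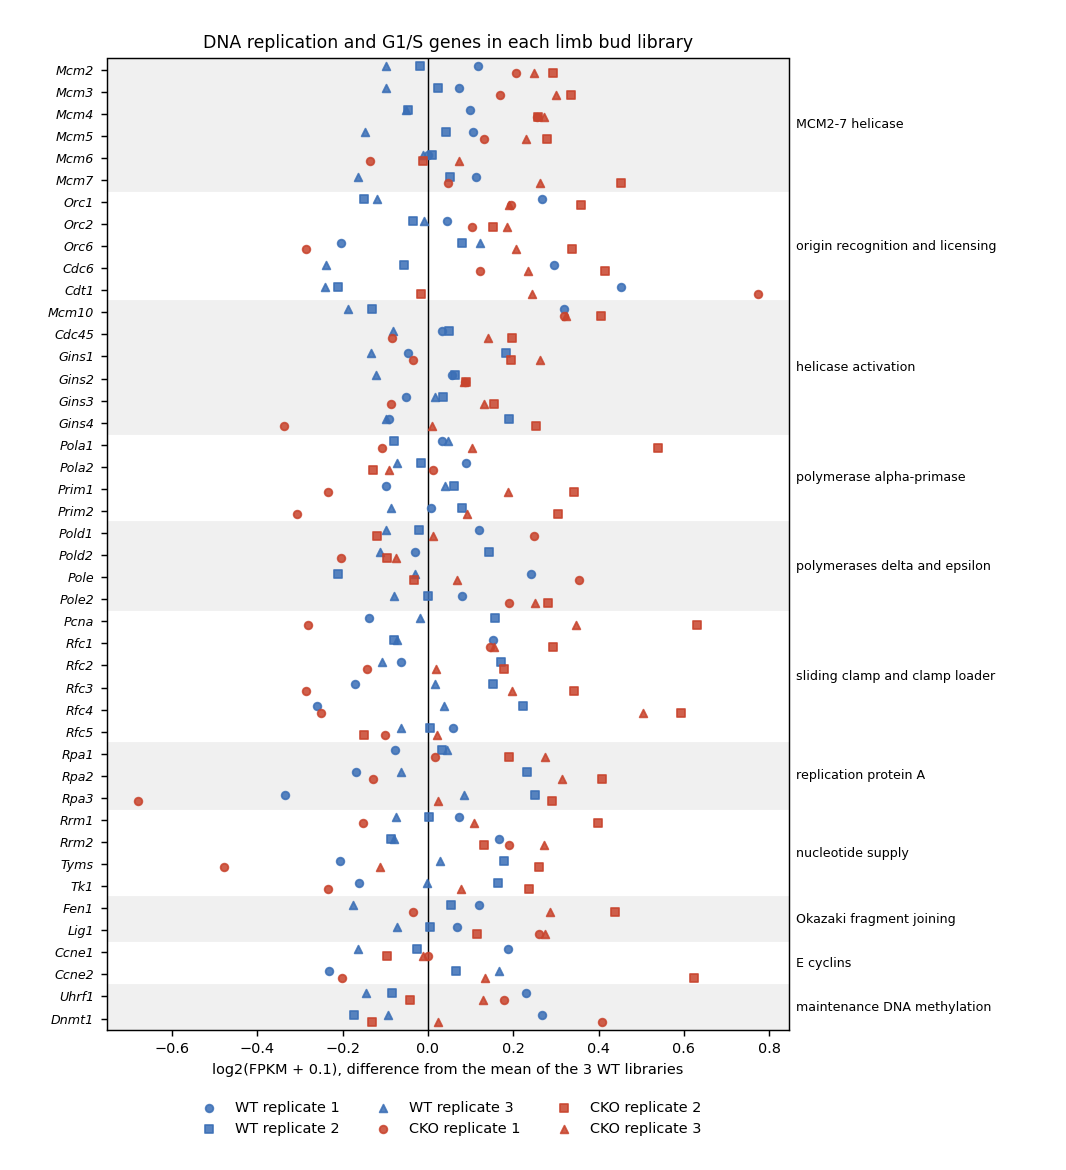
Each of the 44 genes in each library as log2(FPKM + 0.1) minus the mean of the 3 WT libraries (horizontal axis), WT in blue and CKO in red, with the marker shape giving the replicate number. CKO replicates 2 and 3 lie mostly to the right of 0, and CKO replicate 1 lies near WT replicate 1 for many genes.

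The 4 genes of polymerase alpha-primase, which starts each new strand, had a median of 0.064. *Pola2*, its most abundant subunit, had an FPKM of 33.6, 31.2 and 29.997 in WT and 31.8, 28.8 and 29.6 in CKO, lower in CKO within every replicate number but overlapping between the groups, with a log2 fold change of -0.070 (SE 0.11, adjusted *p* = 0.908). The 4 subunits of polymerases delta and epsilon had a median of 0.088. *Pole2* (chromosome 12 from 69201773 to 69228195, minus strand) had 8.34, 7.89 and 7.46 in WT and 9.01, 9.61 and 9.40 in CKO, without overlap, and a log2 fold change of 0.24 (SE 0.11, adjusted *p* = 0.616). In contrast *Pold2*, a subunit of polymerase delta, had 23.6, 26.7 and 22.3 in WT and 20.9, 22.6 and 22.9 in CKO and the lowest log2 fold change of the module, -0.13 (SE 0.12, adjusted *p* = 0.843). Neither passed the test.

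*Pcna* (chromosome 2 from 132249162 to 132253314, minus strand) had an FPKM of 156, 191 and 169 in WT and 141, 265 and 218 in CKO. The CKO libraries spanned a wider range than the WT libraries on both sides, and the log2 fold change was 0.23 (SE 0.24, adjusted *p* = 0.857). Annotated processed pseudogenes of *Pcna* exist, and reads that match both could be split between them. The 5 loader subunits had log2 fold changes from -0.076 (*Rfc5*) to 0.28 (*Rfc4*), and the median of clamp and loader together was 0.14. *Rpa1*, the large subunit of the complex that coats single-stranded DNA, had 30.6, 33.1 and 33.4 in WT and 32.7, 36.9 and 39.1 in CKO. CKO replicate 1 was within the WT range and the other CKO libraries above it, with a log2 fold change of 0.16 (SE 0.12, adjusted *p* = 0.797). *Rpa3*, the smallest subunit, had -0.12, and the median of the 3 subunits was 0.16.

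For nucleotide supply the median was 0.072. *Rrm2* (chromosome 12 from 24708241 to 24714146, plus strand) had an FPKM of 129.9, 109 and 109.5 in WT and 132, 127 and 139.7 in CKO. WT replicate 1 lay between the CKO values, and the log2 fold change was 0.20 (SE 0.13, adjusted *p* = 0.768). Its partner *Rrm1* had 0.12, and *Tyms*, which makes thymidylate, had -0.11. *Lig1*, the ligase that seals Okazaki fragments (chromosome 7 from 13277283 to 13311433, plus strand), had 54.1, 51.8 and 49.1 in WT and 61.9, 55.9 and 62.5 in CKO. All CKO values lay above WT, with a log2 fold change of 0.22 (SE 0.12, adjusted *p* = 0.687), and *Fen1*, the flap nuclease that acts just before it, had 0.23 with overlap. Of the *Fen1* exons, 2039 bases are shared with genes on the opposite strand.

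The E cyclins activate Cdk2 at the G1/S border. *Ccne1* had an FPKM of 29.5, 25.4 and 23.1 in WT and 25.9, 24.2 and 25.7 in CKO, with the CKO libraries inside the WT range and a log2 fold change of -0.036 (SE 0.13, adjusted *p* = 0.964). *Ccne2* had 16.2, 19.9 and 21.3 in WT and 16.5, 29.4 and 20.9 in CKO, where CKO replicate 2 alone exceeded the WT range, and a log2 fold change of 0.19 (SE 0.22, adjusted *p* = 0.873). *Uhrf1*, which recruits Dnmt1 to newly copied DNA, had 104, 83.4 and 80.0 in WT and 100.1, 85.9 and 96.8 in CKO, with overlap and a log2 fold change of 0.088 (SE 0.15, adjusted *p* = 0.914), and *Dnmt1* had 0.10. Neither role had a gene whose groups did not overlap.

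The difference between CKO and WT was not the same in the 3 replicate numbers. Between the libraries numbered 1, the median difference over the 44 genes was -0.059 on the log2 scale, and 19 of the genes were higher in CKO. Between those numbered 2 it was 0.19 with 38 higher, and between those numbered 3 it was 0.20 with 40 higher. Over all genes tested the medians were -0.014, 0.0014 and 0.0014. In 17 of the 44 genes (38.6%) CKO was higher within all 3 numbers, against 18.2% of all genes, and 1 gene, *Pola2*, was lower within all 3, against 21.3% of all genes. Whether the numbers differ beyond chance could not be tested with 1 library of each genotype per number. Which libraries share the numbers 2 and 3 was taken from the labels, since the pairing check does not tell these numbers apart.

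**Figure D3:**
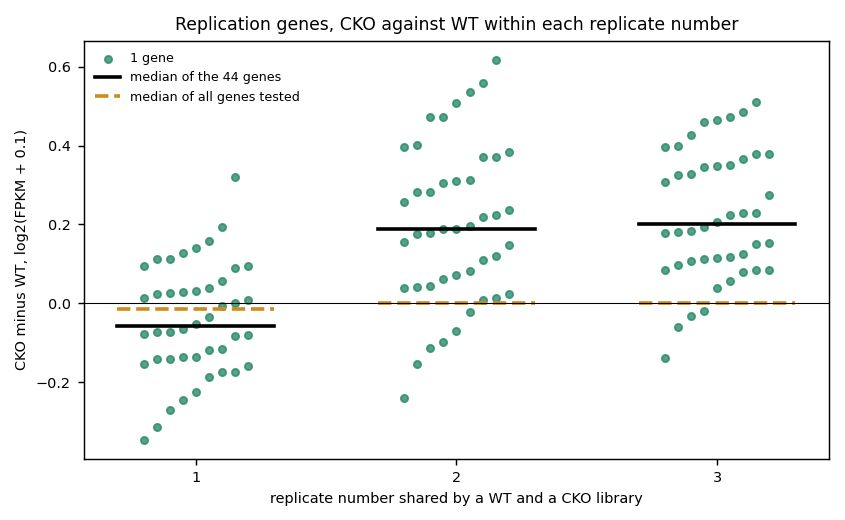
CKO minus WT in log2(FPKM + 0.1) for each of the 44 genes (points) within each replicate number, with the median of the 44 genes (black bar) and of all genes tested (dashed bar). The 44-gene median is -0.059, 0.19 and 0.20 for numbers 1, 2 and 3, and that of all genes is near 0 in each.

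Expressed against the WT mean, the median deviation of the 44 genes was 0.058, 0.029 and -0.077 in WT and -0.017, 0.26 and 0.17 in CKO. CKO replicate 1 thus lay inside the WT range, and the other CKO libraries lay above it. The summed FPKM of the module gave the same order, 1733, 1719 and 1599 in WT and 1706, 2023 and 1931 in CKO. CKO replicate 2 held the highest of the 6 values for 28 of the 44 genes, and the same count over all genes was not made. The erythroid markers had the same order within CKO, 29298, 138770 and 82431, while in WT they were 35850, 61250 and 62089, and their part in the result was not tested.

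With the replicate number as a block, still no gene of the module passed the adjusted threshold, the lowest adjusted *p* value being 0.115, against 2.81% of all genes that passed. At an unadjusted *p* value under 0.05 there were 7 genes higher in CKO (15.9%) and none lower, against 8.14% and 10.2% of all genes. They were *Mcm2*, *Mcm3*, *Mcm4*, *Cdt1*, *Mcm10*, *Pole2* and *Rfc4*. Replicates 2 and 3 alone leave out the number in which the median of the module was below 0 (-0.059). The calls in this subset, their direction and their *p* values are therefore not separate support. At an adjusted *p* value of 0.05, limma there called 7.05% of all 12305 genes higher in CKO and 984 genes lower. It called 6 of the 44 genes (13.6%) higher and none lower. These were *Mcm10* (log2 fold change 0.52, adjusted *p* = 0.00391), *Cdc6* (0.47, 0.0105), *Orc1* (0.41, 0.0273), *Rfc4* (0.42, 0.0292), *Fen1* (0.42, 0.0304) and *Mcm7* (0.41, 0.0498). Between the libraries numbered 1, only 2 of these 6 were higher in CKO, *Mcm10* and *Rfc4*, by 0.00012 and 0.0087 on the log2 scale.

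Of 51 other genes of replication and of its control, a wider list of licensing factors, firing kinases, fork proteins, nucleotide enzymes, chromatin assembly factors and G1/S regulators, 1 passed the adjusted threshold, with or without the replicate block, and 37 had a log2 fold change above 0 (median 0.062). Over all genes tested, 50.9% had a log2 fold change above 0. The CKO values lay above WT without overlap in 2 of the 51 and below it in 4, against 5.63% and 8.86% of all genes. At an unadjusted *p* value under 0.05 by limma there was 1 gene higher and none lower, against 8.31% of all genes in either direction. With the replicate block there were 3 and 3, against 8.14% higher and 10.2% lower. The 1 gene was *Cdkn1a*, which encodes p21, the inhibitor of cyclin-dependent kinases (ENSMUSG00000023067, chromosome 17 from 29090976 to 29100727, plus strand). Its FPKM was 4.44, 6.60 and 5.59 in WT and 21.5, 26.5 and 28.3 in CKO. *Cdkn1a* rose in CKO by 2.19 on the log2 scale (SE 0.18, adjusted *p* = 0.0101 by limma), and by 2.25, 1.99 and 2.32 within the 3 replicate numbers. Leaving out WT replicate 3, CKO replicate 2 or CKO replicate 3 raised the adjusted *p* value to 0.117, 0.0782 and 0.117, and with the replicate block it was 7.3e-07. Its exons share some bases with a transcript on the opposite strand.

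Around *Cdkn1a*, no other gene of the wider list passed the test. *E2f1*, an activating E2F, was measured at an FPKM of 14.6 ± 0.498 in WT and 12.2 ± 0.962 in CKO (SD, n = 3), with CKO below WT without overlap and a log2 fold change of -0.26 (SE 0.11, adjusted *p* = 0.601). *E2f2* had 0.27, and *Rb1*, which encodes the retinoblastoma protein, had 0.23. *Cdc7*, the kinase that fires origins, reached an FPKM of 17.6 ± 1.69 in WT and 14.7 ± 1.54 in CKO (SD, n = 3), again without overlap and with a log2 fold change of -0.25 (SE 0.13, adjusted *p* = 0.680). *Rrm2b*, a ribonucleotide reductase subunit that p53 induces, had an FPKM of 0.943 ± 0.107 in WT and 0.696 ± 0.0907 in CKO (SD, n = 3). Its CKO values also lay below WT without overlap, with a log2 fold change of -0.39 (SE 0.19, adjusted *p* = 0.660). These levels are near the minimum of 0.5 FPKM, and with a pseudocount of 0.5 or 1 the log2 fold change was -0.27 and -0.20. *Cdk2* was lower without overlap as well, with a log2 fold change of -0.11 (SE 0.10, adjusted *p* = 0.855). By contrast *Orc3*, *Orc4* and *Orc5*, the remaining origin recognition subunits of the wider list, had 0.25, 0.24 and 0.21, and the median of the 5 licensing genes there was 0.21.

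**Figure D4:**
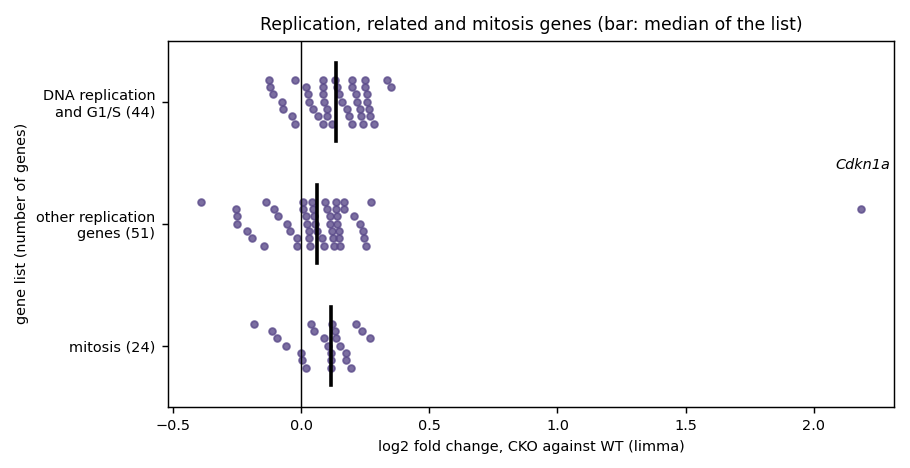
Log2 fold change of CKO against WT (horizontal axis) for the 44 replication genes, 51 other replication genes and 24 mitosis genes (points), with the median of each list as a bar. The medians are 0.14, 0.062 and 0.12, and *Cdkn1a*, at 2.19, lies apart from all other genes of the 3 lists.

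The 24 genes of G2 and mitosis, which are expressed later in the cycle, gave values near those of the module. Of these, 19 had a log2 fold change above 0, against 50.9% of all genes tested, and the median was 0.12. None passed the adjusted threshold by limma and none had an unadjusted *p* value under 0.05, with or without the replicate block. *Mki67*, a marker of cycling cells, had an FPKM of 112, 90.0 and 108 in WT and 106, 155 and 116 in CKO. The groups overlapped, and its log2 fold change of 0.27 (SE 0.18, adjusted *p* = 0.765) was the highest of the 24. These are RNA values of bulk samples and do not measure proliferation. By staining of the Ki67 protein, the paper reports suppressed proliferation in E11.5 CKO embryos. Within replicate numbers 1, 2 and 3 the *Mki67* difference was -0.086, 0.78 and 0.10 on the log2 scale. In replicates 2 and 3 alone its log2 fold change was 0.44 with an adjusted *p* value of 0.0472 by limma. There, 7.05% of all genes tested were called higher. That subset leaves out the number in which *Mki67* was lower in CKO, so this call is not separate support. Without CKO replicate 2 the log2 fold change was 0.11. The summed FPKM of the 24 genes was 1136, 1098.5 and 1105 in WT and 1073, 1322 and 1194 in CKO, so that CKO replicate 1 was again the lowest CKO library and CKO replicate 2 the highest. An E2F-type word was in 1 of the 21 promoters at hand for this list (4.8%) and a CCAAT word in 90.5%.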

How the data were processed

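RNA of 3 WT and 3 CKO limb bud samples was sequenced from stranded mRNA libraries, and the authors deposited 1 table of FPKM for 22040 protein-coding genes. The submitters' processing notes name cutadapt 2.5, HISAT2 2.1.0, featureCounts 1.6.3 and the build mm10 without saying which was used for which assay, and the strand setting of the counting is not given in the sources used here. The chromatin samples of the series were not analysed here. Multiplied by the merged exon length in GENCODE vM21 (99.5% of the gene identifiers found), 94.0% to 94.5% of the low values of a library were whole reads within 0.1, so that the reads on listed genes were 17140887 to 24624444 per library. These were 0.947 to 1.11 times the size by which the deposited FPKM had been divided, so the values carry a scaling between libraries.

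No further scaling was applied in the reported fit. A mean of at least 0.5 FPKM was reached by 12305 genes, which were tested on log2(FPKM + 0.1) with limma 3.58.1 in R 4.3.3 (lmFit, eBayes with a mean-variance trend), with Benjamini-Hochberg adjustment over all of them and a threshold of 0.05. This scale understates changes of low genes. No count model was the main test, since the table holds FPKM. Single values were compared by the exact two-sided permutation test of 3 against 3 libraries. The 44 genes and the other lists were chosen with earlier results of these data known, so their counts and medians are given beside those of all genes and no test was made of a list.

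Values per library are given for genes with an unadjusted *p* value under 0.05, genes whose groups do not overlap and the most abundant gene of each role. From the other lists the rule took genes past the adjusted threshold, *Cdkn1a*, *Mki67* and *Rrm2b*. Any other gene was named after its values were seen. WT and CKO libraries share replicate numbers in the labels. Across all genes tested, the deviations from the group mean correlated by 0.64, 0.44 and 0.27 between the libraries numbered 1, 2 and 3, all above 0.1, and the numbers were therefore taken to pair the libraries. Between unequal numbers the correlations ran from -0.60 to 0.49. WT replicate 2 correlated more with CKO replicate 3 (0.49) than with CKO replicate 2, and WT replicate 3 more with CKO replicate 2 (0.31) than with CKO replicate 3, so the pairing rests mainly on replicate 1 against the rest. The labels do not say what a number stands for. Other settings tried were a pseudocount of 0.5 or 1, no minimum, a minimum of 1 FPKM, median-ratio scaling, quantile normalization, eBayes without the trend, the replicate block, limma voom on the recovered reads, each library left out in turn, and replicates 2 and 3 alone. Promoter sequences came from RefSeq (GRCm38.p6), gene positions from GENCODE vM21 (GRCm38). Tables and plots were made in Python 3.11.15 with pandas 2.3.3, numpy 2.4.6 and matplotlib 3.10.9.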

Additional observations from a re-analysis of the deposited data

How the results depend on the processing

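Depth bears most on the least covered gene of the module, which had 389 reads in its shallowest library. The median log2 fold change of the 44 genes stayed above 0 under all 16 alternatives, between 0.088 (quantile normalization) and 0.21 (without CKO replicate 1), and between 27 and 39 genes lay above 0. No gene of the module passed the adjusted threshold under any alternative, the replicate block included, except the 6 called in replicates 2 and 3 alone, and none was called lower.

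The number of module genes higher at an unadjusted *p* value under 0.05 was 0 in the reported fit, 2 with median-ratio scaling, 2 with no minimum, 1 with voom (41 of the 44 genes), 7 with the replicate block, 17 in replicates 2 and 3 alone and from 0 to 6 with a library left out, highest without CKO replicate 1. At the same cut, 350 of all 12305 genes were higher in the reported fit and 8.14% with the replicate block. That background is not given here for the other settings, so their counts show nothing particular to the module. At the adjusted threshold, the numbers called higher and lower over all genes were 7 and 1. They became 139 and 207 with the replicate block and 867 and 984 in replicates 2 and 3 alone. With quantile normalization 13 were called higher, with no minimum 0 lower, and with a library left out from 1 to 10 higher and from 0 to 13 lower. The cause of these changes was not tested. The replicate block changed no call of the 44 genes at the adjusted threshold.

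Medians of the roles moved too. That of the MCM2-7 genes was lowest with quantile normalization (0.15) and reached 0.32, and that of licensing ran from 0.15 to 0.38, so their order is not settled. Okazaki joining, helicase activation and replication protein A also stayed above 0. The medians of clamp and loader (-0.0029 to 0.25), alpha-primase (-0.031 to 0.23), polymerases delta and epsilon (-0.018 to 0.18), nucleotide supply (-0.050 to 0.18), E cyclins (-0.020 to 0.16) and maintenance methylation (-0.0089 to 0.22) crossed 0.

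Single genes turned sign, some of them with values well away from 0, and none of them was called. These were *Rfc2* (-0.012) and *Uhrf1* (-0.029) with quantile normalization and *Mcm6* (0.030), *Gins4* (0.085) and *Ccne1* (0.040) in replicates 2 and 3 alone. With a library left out, the log2 fold change crossed 0 for *Orc6* (-0.040 to 0.27), *Rfc2* (-0.063 to 0.10), *Rfc3* (-0.044 to 0.27), *Tk1* (-0.080 to 0.16), *Ccne1* (-0.12 to 0.058), *Gins4* (-0.17 to 0.13), *Rpa3* (-0.33 to 0.16), *Prim2* (-0.11 to 0.20), *Pold1* (-0.053 to 0.13), *Mcm6* (-0.074 to 0.030), *Tyms* (-0.30 to 0.074), *Dnmt1* (-0.054 to 0.23), *Pola1* (-0.0031 to 0.32), *Prim1* (-0.023 to 0.27), *Rrm1* (-0.021 to 0.25) and *Ccne2* (-0.034 to 0.38), given as the lowest to the highest value. CKO replicate 2 was the library whose omission turned the most genes, 9 of the 44.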

Other observations

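The 44 genes ranked alike in WT and in CKO by how far replicate 1 stood from the other replicates, but the level of the difference was not shared. The difference of replicate 1 from the mean of replicates 2 and 3 was taken for each of the 44 genes on the log2 scale, once in WT and once in CKO. Across the 44 genes, which are not independent and share their libraries, the WT and the CKO difference had a Spearman correlation of 0.80, against 0.66 over 12294 genes. Replicate 1 was the higher for 28 of the 44 genes in WT and for 9 in CKO, and the sign was opposite in the genotypes for 19. Each difference also went with exon length, with Spearman correlations of 0.34 in WT and 0.33 in CKO across the 44 genes and 0.38 and 0.42 across all genes. *Rpa3*, with the shortest exons of the module (1136 bases), stood at -0.50 in WT and -0.84 in CKO. Over the 15 genes with the shortest exons the median was -0.071 in WT and -0.26 in CKO. Over the 14 genes of middle length it was 0.087 and -0.14, and over the 15 with the longest it was 0.13 and -0.20. In CKO the medians thus did not rise steadily with length. The log2 fold change of CKO against WT had a Spearman correlation of -0.016 with exon length across the 44 genes and of -0.090 across all genes. These are descriptions with no test.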
